A study of Mus musculus with 35 samples.

Results

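The regions described here are 172 tiles of 2 kb whose accessibility was lower in cells without the TET enzymes than in their parental cells on each of 3 days of the exit from naive pluripotency. They were chosen by value. A tile was eligible if it was a full tile on an autosome other than chromosomes 8 and 14 and its mean over all 35 libraries was at least -0.5 log2 RPKM (reads scaled to tile length and library size). That left 100311 of the 1104211 full tiles on these autosomes, out of 1362779 tiles in all. The median of the eligible tiles was subtracted from each library, and levels are given on this centred log2 scale. A tile was kept if the TET_KO mean lay at least 0.8 below the TET_WT mean at D0, at D1 and at D2. The difference between TET_KO and TET_WT therefore defined these tiles, and it is given as a description with no test. Tests were run in the DNMT lines, which took no part in that difference.

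The 35 libraries, of 10000 mouse cells each, come from ATAC-seq, an assay in which a transposase inserts adapters into open DNA. TET_KO cells lack Tet1, Tet2 and Tet3, and TET_WT cells are the line they derive from, while DNMT_KO cells lack Dnmt1, Dnmt3a and Dnmt3b, and DNMT_WT cells are the parental line of that pair. Embryonic stem cells held in 2i and Lif (D0) were taken towards epiblast-like cells and read at D1 and D2, with 3 libraries per line and day, except 2 for TET_KO at D2. The strain of the lines and the number of clones behind each are not given in the labels used here, so loss of the enzymes and differences between lines cannot be told apart. The labels do not say that replicates were separate cultures, and p-values then measure only the spread between these libraries, which may be technical.

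DNA methyltransferases place methyl groups on cytosines, mostly at CpG, and TET enzymes oxidise the methyl group, which leads to its loss. Naive embryonic stem cells in 2i carry little methylation and gain it as they move towards the epiblast state. Many distal enhancers are kept lowly methylated by TET enzymes, and some transcription factors bind poorly to methylated CpG.

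The libraries held 4172681 to 23686796 reads, and the median eligible tile held 5 to 40 reads. Over the 172 tiles the median per library was 4 to 12 reads in TET_KO, 15 to 49.5 in TET_WT, 5 to 11 in DNMT_KO and 6 to 13 in DNMT_WT, so many single values rest on few reads. D1 libraries held 5.62 to 46.8% mitochondrial reads and D0 and D2 libraries 0%, so D1 was processed differently and is set beside the other days without a test. The labels could not be checked independently at the targeted genes. In each Tet gene the tile with the lowest difference was taken, so its direction was fixed by that choice. It held 0 to 8 reads in the 8 TET_KO libraries and 6 to 38 in the 9 TET_WT libraries for Tet1, 3 to 9 and 10 to 36 for Tet2, and 0 to 5 and 7 to 26 for Tet3. None of the 172 tiles lay inside Tet1, Tet2, Tet3, Dnmt1, Dnmt3a or Dnmt3b. Tiles at marker genes were not even between the lines. For the pluripotency genes, the group means ran from 1.14 to 1.74 at Sox2, 0.30 to 1.17 at Pou5f1 and -0.60 to 0.53 at Esrrb. At Nanog, on chromosome 6, they were 0.92, -0.55 and 0.87 at D0, D1 and D2 in TET_KO, against 1.86, 1.45 and 1.56 in TET_WT. At the formative gene Fgf5 they were 1.37, 1.4 and 1.98 in TET_KO, against 0.56, 1.17 and 1.75 in TET_WT. Among trophoblast genes, Cdx2 stood at 1.05, 0.85 and 1.04 in TET_KO, against 0.48, 0.45 and 0.27 in TET_WT, and Gata3 at 1.80, 2.33 and 2.45, against 1.59, 1.94 and 1.61, while Elf5 ran from -1.53 to 0.21 over all groups. Among fibroblast genes, Col3a1 ran from -2.49 to -0.44, Col1a2 from -0.60 to 1.08 and Twist2 from -0.21 to 0.73. The part of these differences in the results below was not tested.

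The DNA of these tiles is shown where a RefSeq gene start (GRCm38.p6) falls inside one, which was the case for 9 of the 172. The 7 promoters printed here (250 bases before to 50 after the start, 5′ to 3′ on the strand of the gene, with CpG, the site the enzymes act on, in capitals) are the 3 non-coding starts in the most lowered tiles and the 4 protein-coding ones. Gm40987 (chr13:65990947-65991246, minus strand), AV205837 (chr16:31325040-31325339, plus strand) and Gm52033 (chr13:66714723-66715022, plus strand) are non-coding genes. Zfp33b (chr5:104571422-104571721, plus strand) is a zinc finger gene. Apod (chr16:31314759-31315058, minus strand) encodes apolipoprotein D, a lipid carrier. Tmem154 (chr3:84665942-84666241, plus strand) encodes a transmembrane protein. Rara (chr11:98964622-98964921, plus strand) encodes retinoic acid receptor alpha.
Gm40987: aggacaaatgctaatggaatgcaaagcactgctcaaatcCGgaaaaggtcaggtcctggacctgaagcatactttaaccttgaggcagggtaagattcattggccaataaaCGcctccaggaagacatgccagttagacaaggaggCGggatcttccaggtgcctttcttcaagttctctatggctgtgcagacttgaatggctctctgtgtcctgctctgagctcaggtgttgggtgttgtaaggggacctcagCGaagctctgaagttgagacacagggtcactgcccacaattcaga
AV205837: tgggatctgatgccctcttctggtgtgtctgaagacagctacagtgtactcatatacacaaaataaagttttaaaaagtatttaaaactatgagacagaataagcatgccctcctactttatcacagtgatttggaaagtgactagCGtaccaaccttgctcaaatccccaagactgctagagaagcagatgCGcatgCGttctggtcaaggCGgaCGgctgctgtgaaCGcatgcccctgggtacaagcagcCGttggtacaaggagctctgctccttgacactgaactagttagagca
Gm52033: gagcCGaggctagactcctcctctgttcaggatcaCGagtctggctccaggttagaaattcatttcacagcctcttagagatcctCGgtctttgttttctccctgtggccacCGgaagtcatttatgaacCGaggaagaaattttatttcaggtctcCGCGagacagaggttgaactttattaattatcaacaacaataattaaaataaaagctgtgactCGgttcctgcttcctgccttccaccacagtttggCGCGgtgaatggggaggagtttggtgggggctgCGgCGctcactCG
Zfp33b: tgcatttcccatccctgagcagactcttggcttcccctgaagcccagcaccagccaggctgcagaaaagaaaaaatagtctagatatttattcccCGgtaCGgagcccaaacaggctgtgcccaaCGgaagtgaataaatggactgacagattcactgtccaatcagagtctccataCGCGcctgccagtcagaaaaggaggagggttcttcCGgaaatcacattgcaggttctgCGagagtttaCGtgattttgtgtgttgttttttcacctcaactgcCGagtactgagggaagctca
Apod: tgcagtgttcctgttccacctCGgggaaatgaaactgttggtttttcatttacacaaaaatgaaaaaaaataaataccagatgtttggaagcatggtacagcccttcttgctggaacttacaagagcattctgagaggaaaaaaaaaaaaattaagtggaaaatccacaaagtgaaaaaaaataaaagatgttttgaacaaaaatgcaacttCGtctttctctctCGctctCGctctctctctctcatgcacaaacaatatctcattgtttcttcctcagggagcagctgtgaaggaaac
Tmem154: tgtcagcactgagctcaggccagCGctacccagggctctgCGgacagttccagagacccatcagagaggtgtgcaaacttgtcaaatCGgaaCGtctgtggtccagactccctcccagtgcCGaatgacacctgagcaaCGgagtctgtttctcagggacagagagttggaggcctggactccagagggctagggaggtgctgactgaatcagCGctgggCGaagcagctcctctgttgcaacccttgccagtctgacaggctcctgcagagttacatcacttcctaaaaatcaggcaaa
Rara: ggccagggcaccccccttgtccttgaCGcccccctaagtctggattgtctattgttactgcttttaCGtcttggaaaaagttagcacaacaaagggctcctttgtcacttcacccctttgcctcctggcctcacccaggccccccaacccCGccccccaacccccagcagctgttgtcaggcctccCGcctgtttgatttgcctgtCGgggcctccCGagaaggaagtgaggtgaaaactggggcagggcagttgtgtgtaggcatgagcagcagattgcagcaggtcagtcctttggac

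These windows held few CpG. The 9 promoters held 2 to 13 CpG (median 6), against 0 to 67 (median 18) in the 16520 listed promoters of eligible tiles. Here and below, promoters on chromosome 18 were left out of these. Their G and C content was 37.3 to 58.3% (median 49.7%), against a median of 60.0% in eligible tiles. Among the printed windows Gm52033 held the most CpG, 13, and Gm40987 and Apod the fewest, 4 each. Searched on both strands, the GC box (GGGCGG) was found in 1 of the 9 (11.1%), Rara, against 57.8% of promoters in eligible tiles. The core of the NRF1 site (GCATGCGC) was found in 1, AV205837, against 4.33%, and the CCAAT box (CCAAT) in 2 (22.2%), Gm40987 and Zfp33b, against 36.1%. The letters TGACGTCA and CACGTG were found in none of the 9, against 2.76% and 9.46%. A match describes the letters of the window only. The promoters of eligible tiles were not matched to the 9 for coding and non-coding genes, and the part of this was not tested.

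Over the 172 tiles the level was low in TET_KO, high in TET_WT and between them in both DNMT lines. The mean of the library medians was -0.73 ± 0.03 at D0, -0.77 ± 0.20 at D1 and -0.81 ± 0.10 at D2 in TET_KO (SD, n = 3, 3 and 2). It was 0.40 ± 0.12, 0.47 ± 0.03 and 0.27 ± 0.02 in TET_WT on the same days (SD, n = 3 each). It was -0.15 ± 0.02, 0.01 ± 0.17 and -0.15 ± 0.02 in DNMT_KO and -0.09 ± 0.08, -0.17 ± 0.05 and -0.19 ± 0.01 in DNMT_WT (SD, n = 3 each). No DNMT library reached the range of either TET line. The rule makes TET_KO low and TET_WT high in these tiles, so a line outside the rule is likelier to lie between them. In such bulk samples a tile open in fewer cells and a tile less open in each cell cannot be told apart. The median difference TET_KO minus TET_WT over the tiles was -1.09 at D0, -1.16 at D1 and -1.07 at D2. Of all eligible tiles 5.47% lay at or below -0.8 at D0, 6.31% at D1, 5.58% at D2 and 0.171%, the 172 tiles themselves, on every day. The opposite rule, at least 0.8 higher in TET_KO on every day, found 297 tiles. In those tiles the DNMT lines lay between the TET lines as well. Their group means were -0.195 to 0.198, with TET_WT at -0.76 to -0.48 and TET_KO at 0.46 to 0.75.

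**Figure D1:**
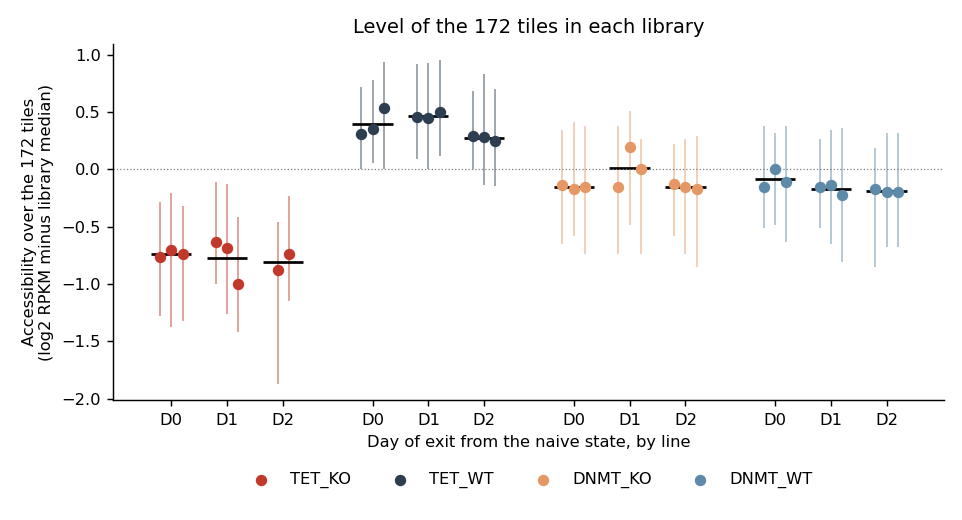
Points are the median over the 172 tiles of the centred log2 RPKM in each library, thin vertical lines the quartiles over tiles and black bars the mean of each group of line and day. The TET_KO libraries sit between -1.0 and -0.64, the TET_WT libraries between 0.25 and 0.54, and the DNMT libraries between -0.22 and 0.19.

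How far the libraries separated varied between tiles. Every TET_KO library lay below every TET_WT library of its day in 133 tiles at D0 (77.3%, against 8.50% of eligible tiles), 135 at D1 (78.5%, against 7.39%) and 142 at D2 (82.6%, against 13.6%). On all 3 days this held in 92 of the 172, against 0.399% of eligible tiles. This uses the same difference as the rule. Tiles near Lag3, Spp1 and Sh3bp4 lay just inside the threshold, each at -0.80 on the day with the smallest difference. Tiles near Hs6st1 and Pltp and in C1ql4 lay just outside it, at -0.80 as well. At D2 the tile near Lag3 (chromosome 6, 124900001 to 124902000) averaged -0.25 ± 0.69 in TET_KO and 0.56 ± 0.13 in TET_WT, and the one near Pltp (chromosome 2, 164860001 to 164862000) -0.81 ± 1.51 and -0.01 ± 0.69 (SD, n = 2 and 3).

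At one end stood tiles that were higher in TET_WT and in both DNMT lines than in TET_KO. The lowest was a tile with the start of Gm40987 (chromosome 13, 65990001 to 65992000), the first promoter printed above, 31.1 kb from the predicted gene Gm46425. In TET_KO it held 2, 0 and 3 reads at D0, 7, 2 and 2 at D1 and 2 and 8 at D2. In TET_WT it held 87, 43 and 68 reads at D0, 51, 34 and 24 at D1 and 35, 44 and 41 at D2. On the centred scale every TET_KO library was below every other library of the series. DNMT_KO libraries held 11 to 20 reads and DNMT_WT libraries 8 to 31. The differences TET_KO minus TET_WT were -4.27, -3.30 and -3.08 at D0, D1 and D2. At D0 the level was -2.89 ± 1.07 in TET_KO, 1.38 ± 0.34 in TET_WT, 0.77 ± 0.46 in DNMT_KO and 0.51 ± 0.58 in DNMT_WT (SD, n = 3 each).

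A tile 11.2 kb from Apod (chromosome 16, 31326001 to 31328000), over the non-coding gene AV205837, had the same shape. TET_KO held 9, 7 and 7 reads at D0, 8, 5 and 0 at D1 and 7 and 5 at D2. TET_WT held 86, 34 and 64 reads at D0, 55, 28 and 24 at D1 and 37, 37 and 53 at D2. At D1 the level was -1.74 ± 1.24 in TET_KO, 1.38 ± 0.39 in TET_WT, 1.47 ± 0.48 in DNMT_KO and 0.92 ± 0.31 in DNMT_WT (SD, n = 3 each). Here too the TET_KO libraries were below all others.

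A tile 12.5 kb from Stac2, which encodes an adaptor of calcium channels (chromosome 11, 98066001 to 98068000), held 6, 3 and 3 reads in TET_KO at D0 and 86, 46 and 47 in TET_WT. At D1 it held 11, 3 and 2 reads in TET_KO and 54, 20 and 36 in TET_WT, and at D2 it held 6 and 17 in TET_KO and 39, 29 and 63 in TET_WT. Its differences were -3.02, -2.85 and -1.80. DNMT_KO stood there at 0.45 ± 0.12, 0.81 ± 0.40 and 0.93 ± 0.06, and DNMT_WT at 0.55 ± 0.36, 0.61 ± 0.60 and 0.60 ± 0.70, above TET_KO at -1.78 ± 0.31, -1.45 ± 0.95 and -0.55 ± 0.45. A tile 29.2 kb from the zinc finger gene Zfp640 (chromosome 13, 66710001 to 66712000) had differences of -1.47, -2.01 and -2.92. TET_KO was near the median of eligible tiles there at D0 and D1, at -0.29 ± 0.45 and -0.16 ± 0.28, with TET_WT at 1.18 ± 0.27 and 1.85 ± 0.24. At D2 it stood at -0.99 ± 0.75 in TET_KO, 1.93 ± 0.39 in TET_WT, 0.86 ± 0.31 in DNMT_KO and 1.49 ± 0.46 in DNMT_WT (SD, n = 2, 3, 3 and 3). With a second tile near Zfp640 (chromosome 13, 66698001 to 66700000), these are the 5 members in which every TET_KO library was below every other library. They are also the 5 such eligible tiles (0.00498%).

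**Figure D2:**
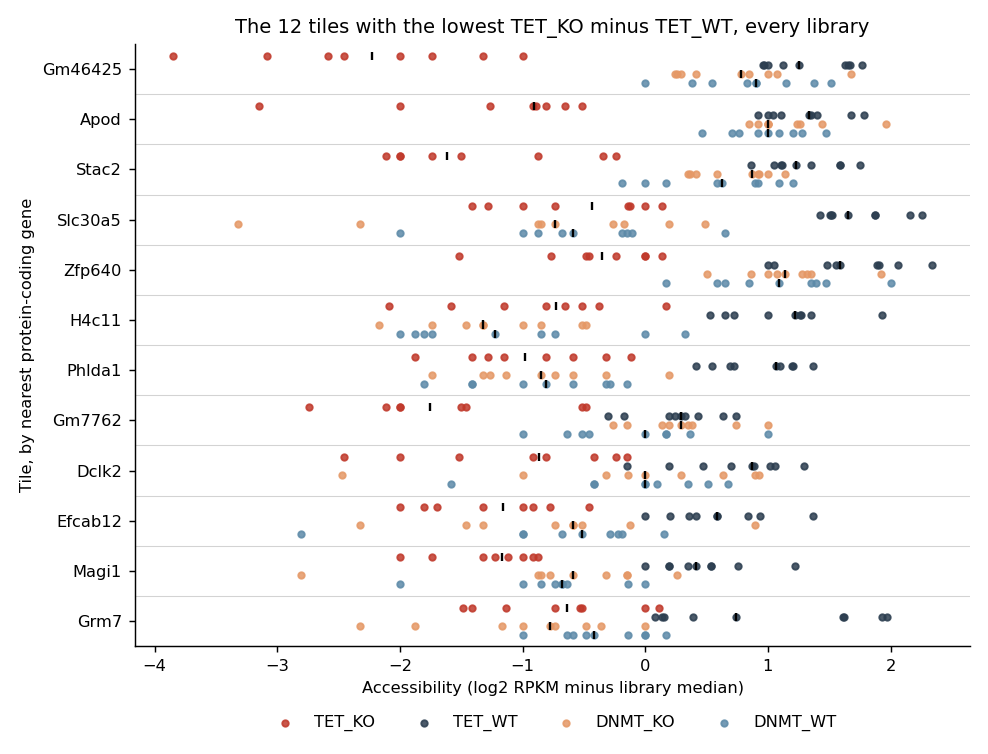
Each point is the centred log2 RPKM of one library in one of the 12 tiles with the lowest mean difference among those whose TET_KO and TET_WT libraries did not overlap on any day, coloured by line, with a black tick at the median of each line over all days. In the tiles near Gm46425, Apod, Stac2 and Zfp640 the DNMT libraries lie nearer to TET_WT, and in those near Slc30a5, H4c11 and Phlda1 nearer to TET_KO.

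At the other end stood tiles in which TET_WT was high and the other lines were low. A tile 8.52 kb from Slc30a5, a zinc transporter gene (chromosome 13, 100842001 to 100844000), held 7, 13 and 11 reads at D0, 7, 11 and 3 at D1 and 10 and 12 at D2 in TET_KO. In TET_WT it held 115, 51 and 63 reads at D0, 43, 49 and 44 at D1 and 66, 67 and 60 at D2. DNMT_KO libraries held 1 to 14 reads and DNMT_WT libraries 2 to 13. On the centred scale every TET_WT library was above every library of the other lines. At D0 the level was -0.38 ± 0.78 in TET_KO, 1.56 ± 0.08 in TET_WT, -1.35 ± 0.84 in DNMT_KO and -0.59 ± 0.45 in DNMT_WT (SD, n = 3 each).

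A tile 5.03 kb from the histone gene H4c11 (chromosome 13, 21728001 to 21730000) held 4, 10 and 7 reads in TET_KO at D0 and 66, 42 and 48 in TET_WT, with 4, 5 and 3 in DNMT_KO and 6, 8 and 4 in DNMT_WT. Its differences were -2.06, -2.26 and -1.63. A tile 37.4 kb from Phlda1, which encodes a pleckstrin homology-like protein (chromosome 10, 111546001 to 111548000), stood at -0.57 ± 0.62, -0.94 ± 0.43 and -1.51 ± 0.51 in TET_KO and at 0.74 ± 0.33, 1.04 ± 0.44 and 0.99 ± 0.27 in TET_WT. DNMT_KO stood there at -1.15 ± 0.58, -0.48 ± 0.77 and -0.95 ± 0.28, and DNMT_WT at -1.12 ± 0.86, -0.47 ± 0.29 and -1.0 ± 0.41. Every TET_WT library was above every other library in 6 members, near Slc30a5 (2 tiles), H4c11 and Phlda1 and in Skap2 and Creld1, among 8 such eligible tiles (0.00798%). The filter on the mean was passed through TET_WT in 4 of these 6. Over the other 26 libraries the mean was -0.63 log2 RPKM in the tile near Slc30a5 described above and -0.51 in the second one, -1.03 near H4c11 and -0.85 near Phlda1, against the minimum of -0.5, and only Skap2 and Creld1 were above it.

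The place of the DNMT lines was counted over the 172 tiles. The DNMT_WT mean over the days was nearer to TET_KO than to TET_WT in 81 tiles (47.1%), against 49.2% of eligible tiles, and lay between them in 137 (79.7%, against 15.95%). Both DNMT lines were at least 0.8 above TET_KO in 50 tiles (29.1%, against 2.03%) and at least 0.8 below TET_WT in 40 (23.3%, against 1.19%), with 1 tile in both counts and 83 in neither. With each chromosome centred on its own median the counts above TET_KO and below TET_WT were 42 and 23. With 0.5 added to RPKM before the logarithm they were 19 and 15, and with quantile normalisation 50 and 39. As deposited, without centring, their order was reversed, at 41 and 55, and DNMT_WT was nearer to TET_KO in 103 tiles. The rule requires a wide gap between the TET lines. Such a gap makes the count between them and the counts at least 0.8 away likelier than in eligible tiles. TET_WT also helped tiles through the filter on the mean, which 99 of the 172 passed over the other 26 libraries. The count below TET_WT therefore includes tiles let in by TET_WT. All these counts set lines of different origin side by side and were not tested.

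The other tiles among the 12 lowest varied in the DNMT lines. A tile 1.41 kb from the predicted gene Gm7762 (chromosome 13, 65350001 to 65352000) stood at -2.10 ± 0.90 in TET_KO at D2, 0.18 ± 0.47 in TET_WT, 0.20 ± 0.50 in DNMT_KO and 0.06 ± 1.00 in DNMT_WT. A tile inside Dclk2, a doublecortin-like kinase gene (chromosome 3, 86842001 to 86844000), had differences of -1.36, -2.09 and -2.16, and at D2 it stood at -1.99 ± 0.67 in TET_KO, 0.17 ± 0.31 in TET_WT, -0.34 ± 0.65 in DNMT_KO and -0.81 ± 0.68 in DNMT_WT. A tile inside Efcab12 (chromosome 6, 115830001 to 115832000) had differences of -1.47, -2.49 and -1.43, and at D0 it stood at -1.21 ± 0.43 in TET_KO, 0.26 ± 0.30 in TET_WT, -1.12 ± 0.47 in DNMT_KO and -1.50 ± 1.15 in DNMT_WT. The tile 51.5 kb from Magi1, a scaffold of cell junctions (chromosome 6, 93622001 to 93624000), had differences of -1.75, -2.18 and -1.23. A tile inside Grm7, a glutamate receptor gene (chromosome 6, 111448001 to 111450000), had differences of -0.96, -2.36 and -1.77. These tiles in Efcab12, near Magi1 and in Grm7 passed the filter on the mean through TET_WT. Over the other 26 libraries their means were -0.86, -0.86 and -0.64 log2 RPKM, against the minimum of -0.5.

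Some of the tiles lay side by side. With gaps under 10 kb joined, the 172 tiles formed 145 stretches, of which 130 were lone tiles and 15 held 2 or more (42 tiles in all). The one with most tiles was next to Apod (chromosome 16, 31314001 to 31330000), with 6 of 8 tiles chosen and a mean difference of -1.88. TET_KO stood at -2.06 to -0.98 in these 6 tiles, averaged over the days. Those at 31314001, 31320001 and 31322001 passed the filter on the mean through TET_WT, with means of -0.76, -0.55 and -0.71 without it. The other lines peaked at 31326001, at 1.29 in TET_WT, 1.19 in DNMT_KO and 0.99 in DNMT_WT. Summed over libraries, that tile held 48 reads in TET_KO, 418 in TET_WT, 195 in DNMT_KO and 175 in DNMT_WT.

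The stretch next to Slc30a5 (chromosome 13, 100836001 to 100850000) had 5 of 7 tiles chosen. Its tile at 100842001 stood at -0.56 in TET_KO, 1.75 in TET_WT, -0.87 in DNMT_KO and -0.55 in DNMT_WT, averaged over the days. Without TET_WT the tiles at 100840001, 100842001, 100844001 and 100848001 had means of -0.51, -0.63, -0.58 and -0.57 log2 RPKM. These are under the minimum of -0.5, so the tiles passed the filter through TET_WT, which makes low levels in the other lines likelier there. The tile at 100832001, outside the stretch, was not chosen and stood at 2.08 in TET_KO, 1.77 in TET_WT, 1.48 in DNMT_KO and 1.79 in DNMT_WT. The tiles near Phlda1 (chromosome 10, 111540001 to 111564000) numbered 4 of 12, of which 7 passed the filter on the mean. The chosen ones at 111546001, 111552001 and 111562001 passed it through TET_WT, with means of -0.85, -0.84 and -0.68 without that line.

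The stretch at Tspoap1 (chromosome 11, 87752001 to 87762000) had 4 of 5 tiles chosen. The fifth tile, at 87756001, which holds the microRNA gene Mir142 of blood cells, was left out by its difference of -0.74 at D2, after -2.19 at D0 and -1.79 at D1. Summed over libraries it held 72 reads in TET_KO, 340 in TET_WT, 125 in DNMT_KO and 107 in DNMT_WT. The chosen tile beside it, at 87754001, held 78 reads in TET_KO, 373 in TET_WT, 103 in DNMT_KO and 113 in DNMT_WT. Libraries differed in depth, so these sums cannot be compared between lines. In the same order of lines, the levels averaged over the days were -0.61, 0.96, 0.40 and 0.04 at 87756001. At 87754001 they were -0.52, 1.17, 0.30 and 0.28. A stretch near Zfp640 (chromosome 13, 66710001 to 66718000) had 3 of 4 tiles chosen and a mean difference of -1.95, and it includes the start of Gm52033 printed above. Gene families with near-identical copies are common in this part of chromosome 13, so the values near Zfp640, Gm46425 and Gm7762 are uncertain, and the labels do not say how reads from copies were assigned.

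**Figure D3:**
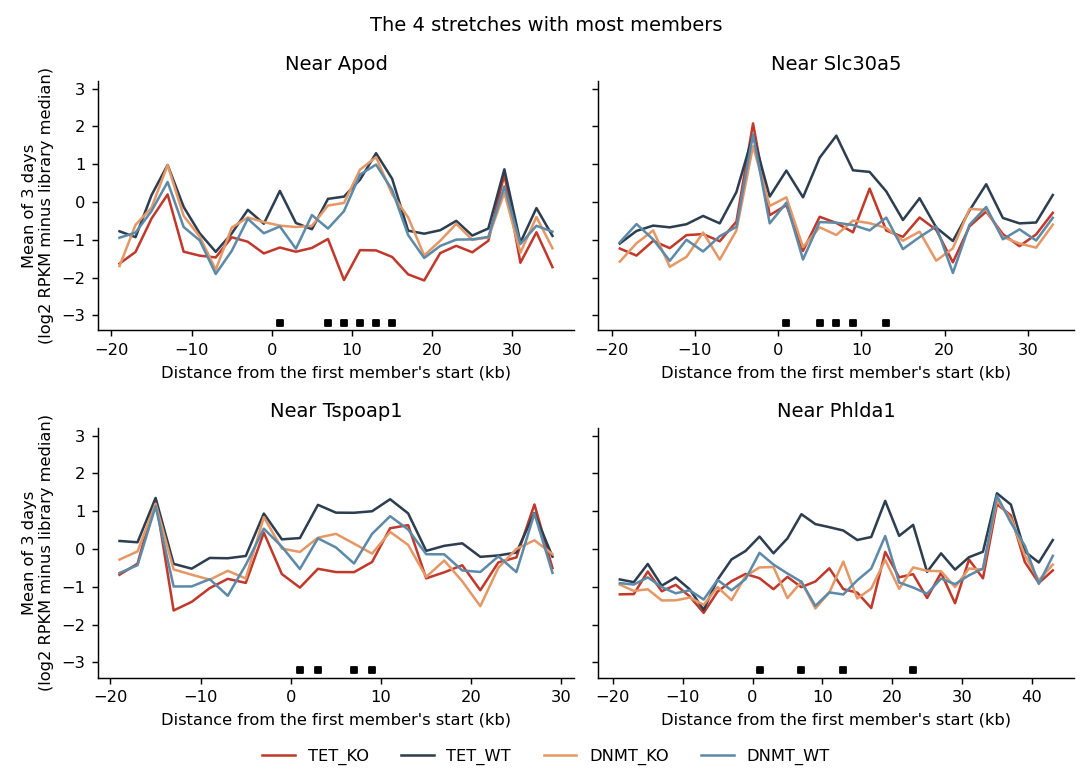
Lines are the level of each line (centred log2 RPKM, mean of the 3 days) in consecutive 2-kb tiles, by distance in kb from the start of the first chosen tile, and black squares mark the chosen tiles. At the Apod peak TET_WT reaches 1.29 and the DNMT lines 1.19 and 0.99, while at the Slc30a5 peak TET_WT reaches 1.75 and the DNMT lines -0.87 and -0.55. The tile at the Slc30a5 peak passed the filter on the mean through TET_WT.

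Few of the tiles were at gene ends. Of the 172 tiles, 7 (4.07%) held an end of a protein-coding gene, against 16.4% of eligible tiles, and 73 (42.4%) overlapped such a gene, against 64.9%. The share over 10 kb from any was 33.7%, against 19.3%. Mean levels differed too, with 32.0% of the 172 tiles at a mean of 0 log2 RPKM or more, against 40.7%. At a mean of 0 or more, 2 of 55 tiles (3.64%) held a gene end, against 29.6% of eligible tiles, and below 0 it was 5 of 117 (4.27%), against 7.30%. These shares were not tested.

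Over the start of Zfp33b (chromosome 5, 104570001 to 104572000) TET_KO held 13, 5 and 3 reads at D0, 13, 13 and 8 at D1 and 5 and 14 at D2, against 49, 31 and 48 at D0, 36, 36 and 22 at D1 and 21, 40 and 31 at D2 in TET_WT. The libraries of both lines did not overlap on any day, and the differences were -1.95, -1.25 and -1.59. Over the start of Apod (chromosome 16, 31314001 to 31316000) the level at D2 was -1.66 ± 1.13 in TET_KO, 0.32 ± 0.39 in TET_WT, -0.59 ± 0.96 in DNMT_KO and -0.79 ± 1.20 in DNMT_WT. At Tspoap1 (chromosome 11, 87758001 to 87760000) the differences were -1.79, -1.81 and -1.12. At Fcgr3, an antibody receptor gene of immune cells (chromosome 1, 171050001 to 171052000), they were -1.59, -0.98 and -2.14. At Sez6, a gene of neurons (chromosome 11, 77978001 to 77980000), they were -0.93, -1.59 and -0.87.

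The start of Tmem154 (chromosome 3, 84666001 to 84668000) held 3, 8 and 5 reads in TET_KO at D0, 9, 13 and 4 at D1 and 10 and 22 at D2, against 35, 15 and 9 at D0, 25, 16 and 24 at D1 and 37, 36 and 39 at D2 in TET_WT. The libraries of both lines did not overlap on 2 of the 3 days. A start inside Rara (chromosome 11, 98964001 to 98966000) was among the 5 members with the highest mean level. TET_KO held 13, 18 and 7 reads there at D0, 18, 23 and 10 at D1 and 16 and 27 at D2, against 73, 26 and 48 at D0, 43, 42 and 28 at D1 and 38, 48 and 63 at D2 in TET_WT. Its differences were -1.03, -0.99 and -0.99, and the libraries did not overlap on any day. The remaining 4 of these 5 were the tile near Apod and 3 near Zfp640, of which the one not yet described (chromosome 13, 66714001 to 66716000) had differences of -1.74, -2.09 and -1.64.

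Lists of genes with roles in this system were set beside the tiles. A member within 50 kb was found for 1 of 10 core pluripotency genes, 1 of 12 formative epiblast genes, 1 of 16 haematopoietic genes and 1 of 13 genes of the methylation machinery that had an eligible tile. It was found for 0 of 16 naive pluripotency genes, 0 of 19 germline genes that depend on methylation, 0 of 26 imprinted genes and 0 of 3 genes of the cleavage-stage-like state. The count was also 0 for 18 Hox, 12 fibroblast, 15 primitive streak and mesoderm, 13 neuroectoderm, 10 primitive endoderm, 12 trophoblast and 13 housekeeping genes. The share over all genes with an eligible tile was not counted. Counts of 0 or 1 therefore cannot be read as results about these lists. The tile 47.5 kb from Sox2 (chromosome 3, 34700001 to 34702000) held 6, 2 and 3 reads at D0, 4, 7 and 2 at D1 and 3 and 8 at D2 in TET_KO, against 53, 13 and 14 at D0, 15, 7 and 11 at D1 and 15, 9 and 18 at D2 in TET_WT. At D0 it stood at -1.98 ± 0.63 in TET_KO, -0.19 ± 0.52 in TET_WT, 0.29 ± 0.32 in DNMT_KO and -0.38 ± 0.15 in DNMT_WT (SD, n = 3 each).

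In Etv5, an ETS factor gene (chromosome 16, 22426001 to 22428000), the differences were -0.94, -0.97 and -1.48, and at D2 TET_KO held 2 and 18 reads, against 33, 11 and 21 in TET_WT. In Etv6, an ETS repressor needed in blood stem cells (chromosome 6, 134042001 to 134044000), they were -0.91, -0.92 and -1.04, and at D0 the tile stood at -0.71 ± 0.34 in TET_KO, 0.20 ± 0.34 in TET_WT, -0.67 ± 0.17 in DNMT_KO and -0.68 ± 0.65 in DNMT_WT. The Etv6 tile passed the filter on the mean through TET_WT, with a mean of -0.76 log2 RPKM over the other 26 libraries. Mbd4, a glycosylase that acts at methylated CpG, was within 50 kb of both Efcab12 tiles. The second of these (chromosome 6, 115822001 to 115824000) had differences of -1.56, -1.46 and -1.24.

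Loss of the DNA methyltransferases was tested in the same tiles. None of the 172 was called between DNMT_KO and DNMT_WT at D0, D1 or D2 (limma, 2-sided, adjusted p under 0.05 over all 100311 eligible tiles). Of all eligible tiles 0% were called at D0, 0.198% at D1 and 0.00199% at D2. An unadjusted p under 0.05 was found for 4 of the 172 tiles at D0 (2.33%, against 5.56% of eligible tiles), 25 at D1 (14.5%, against 12.1%) and 9 at D2 (5.23%, against 6.83%). The median difference DNMT_KO minus DNMT_WT was -0.05 at D0, -0.05 at D1 and 0.02 at D2, against -0.03, -0.01 and -0.02 over eligible tiles. The differences above 0 numbered 80, 78 and 88 of the 172 on these days. The smallest adjusted p at D1, 0.0815 by limma, was that of a tile near Ssc4d (chromosome 5, 135950001 to 135952000), named after its values were seen, with a difference of -1.81 ± 0.48 (SE). At D1 the count was 1, 5 and 3 without DNMT_KO replicate 1, 2 and 3, and 1 without DNMT_WT replicate 2. With limma voom on the recovered reads it was 0 on each day. The shares of eligible tiles called in these fits are not given here, so these counts cannot be read as results about the 172.

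**Figure D4:**
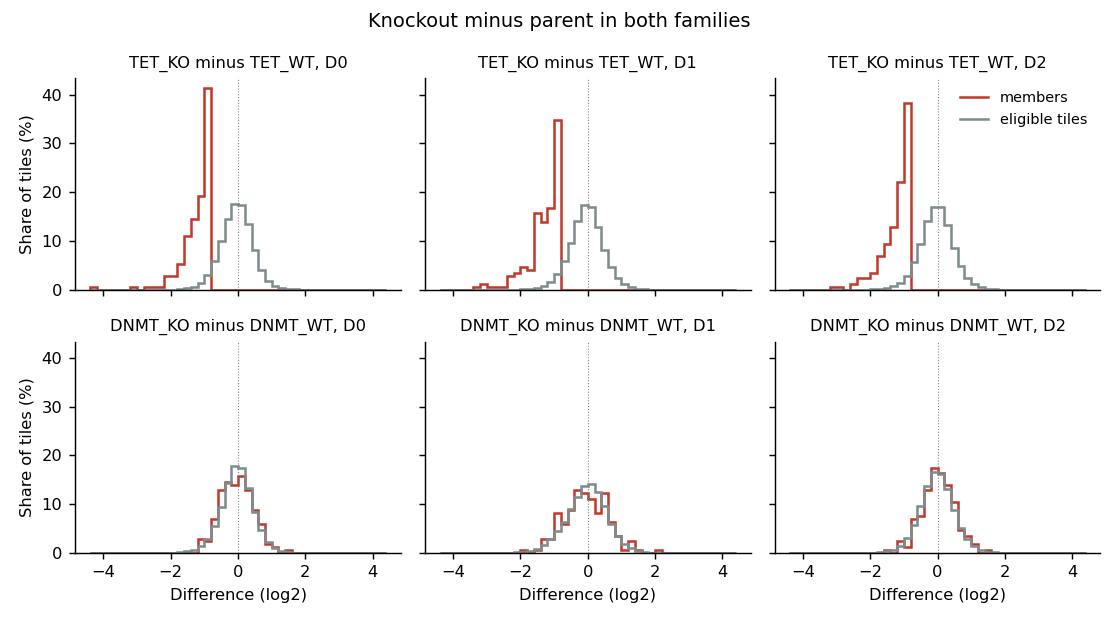
Lines show the share of tiles (%) in bins of 0.2 log2 units of the difference knockout minus parent, for the 172 members and for the 100311 eligible tiles, in the TET family and the DNMT family on each day. The members end at -0.8 in the TET family because the rule says so, and in the DNMT family their medians are -0.05, -0.05 and 0.02.

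Change along the exit was tested within each DNMT line, between D2 and D0. In DNMT_KO 2 of the 172 tiles rose and 3 fell, against 0.421% and 1.89% of eligible tiles. In DNMT_WT 4 rose and 2 fell, against 0.505% and 1.73%. The interaction tested whether the difference between knockout and parent changed between D0 and D2. In it 0 of the 172 were called by limma (0% of eligible tiles), with 2 at an unadjusted p under 0.05 (1.16%, against 5.32% of eligible tiles). A p that misses the threshold does not show that the lines act alike at these depths.

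A tile 10.2 kb from Tmem154 (chromosome 3, 84654001 to 84656000) rose in both DNMT lines. DNMT_KO held 16, 10 and 14 reads at D2 and 4, 5 and 8 at D0, and DNMT_WT 18, 20 and 29 at D2 and 9, 8 and 13 at D0. The change was 1.23 ± 0.35 in DNMT_KO (SE, limma adjusted p = 0.0445) and 1.48 ± 0.35 in DNMT_WT (limma adjusted p = 0.0101). In the TET family this tile stood at 0.32 ± 0.17 at D2 and -1.18 ± 0.52 at D0 in TET_KO, and at 1.65 ± 0.46 and 0.24 ± 0.11 in TET_WT. A tile inside Magi1 (chromosome 6, 93848001 to 93850000) rose in both DNMT lines as well, by 1.43 ± 0.41 in DNMT_KO (limma adjusted p = 0.0448) and 1.79 ± 0.41 in DNMT_WT (limma adjusted p = 0.00703).

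In Nxn, the gene of nucleoredoxin (chromosome 11, 76294001 to 76296000), a tile had a change of 0.48 ± 0.55 in DNMT_KO (limma adjusted p = 0.788) and rose by 2.13 ± 0.55 in DNMT_WT (limma adjusted p = 0.0205). The tile inside Rara had a change of 0.45 ± 0.36 in DNMT_KO (limma adjusted p = 0.666) and rose by 1.25 ± 0.36 in DNMT_WT (limma adjusted p = 0.0496). DNMT_WT held 25, 11 and 21 reads there at D2 and 7, 8 and 15 at D0. The interaction called neither tile.

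Near Cobl, an actin nucleator gene (chromosome 11, 12468001 to 12470000), the level fell in both lines, with a change of -1.73 ± 0.50 in DNMT_KO (limma adjusted p = 0.0493) and -2.23 ± 0.50 in DNMT_WT (limma adjusted p = 0.00626). Near Chst3, a chondroitin sulfotransferase gene (chromosome 10, 60174001 to 60176000), DNMT_KO held 10, 6 and 3 reads at D2 and 14, 17 and 21 at D0, and DNMT_WT 3, 5 and 1 at D2 and 19, 15 and 35 at D0. The change was -1.64 ± 0.49 in DNMT_KO (limma adjusted p = 0.0587) and -2.81 ± 0.49 in DNMT_WT (limma adjusted p = 0.000320). Near Spp1, the osteopontin gene (chromosome 5, 104442001 to 104444000), DNMT_KO held 5, 7 and 2 reads at D2 and 19, 26 and 19 at D0, and DNMT_WT 7, 4 and 11 at D2 and 27, 16 and 36 at D0. The change was -2.40 ± 0.47 in DNMT_KO (limma adjusted p = 0.00145) and -1.57 ± 0.47 in DNMT_WT (limma adjusted p = 0.0618). A tile 424 kb from the adhesion receptor gene Adgrl3 (chromosome 5, 82252001 to 82254000) had a called change of -1.63 ± 0.47 in DNMT_KO (limma adjusted p = 0.0486). DNMT_WT was lower at D2 there too, at 0.39 ± 0.19 against 1.22 ± 0.60 at D0 (SD, n = 3 each), and was not called.

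The calls of Chst3 in DNMT_WT and of Spp1 in DNMT_KO held without each library in turn. The others did not. In DNMT_WT the rise near Tmem154 was lost without D2 replicate 3 (limma adjusted p = 0.0961). The rise in Magi1 was lost without D0 replicate 2 or D2 replicate 2 (limma adjusted p = 0.127 and 0.0622), and the fall near Cobl without D0 replicate 3 or D2 replicate 1 (0.0509 and 0.192). The rise in Nxn was lost without D0 replicate 1, D2 replicate 2 or D2 replicate 3 (limma adjusted p = 0.273, 0.0926 and 0.0642), and that in Rara in 5 of 6 such fits (adjusted p up to 0.224). In DNMT_KO the calls of Tmem154, Adgrl3, Cobl and Magi1 were lost in 5, 5, 5 and 6 of 6 such fits, with limma adjusted p up to 0.222, 0.269, 0.260 and 0.22.

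The tiles were unevenly spread over the chromosomes. Chromosome 6 held 47 of the 172 (27.3%) and 6.21% of eligible tiles, chromosome 11 held 23 (13.4%, against 9.29%), chromosome 13 held 17 (9.88%, against 3.52%) and chromosome 16 held 11 (6.40%, against 3.28%). All eligible tiles of chromosome 6 had a median TET_KO minus TET_WT of -0.26 at D0, -0.32 at D1 and -0.24 at D2, and those of chromosome 11 of -0.20, -0.14 and -0.17. The other chromosomes lay between -0.07 and 0.09. Of the 297 tiles higher in TET_KO, 5 lay on chromosome 6 and 3 on chromosome 11. With each chromosome centred on its own median the rule found 121 tiles, of which 9 lay on chromosome 6 and 110 were shared with the 172. The tiles named here on chromosome 6 are those of Efcab12, Magi1, Grm7, Etv6, Skap2, Creld1 and Lag3. On chromosome 11 they are those of Stac2, Tspoap1, Rara, Nxn, Sez6 and Cobl. At D2 Sez6 and Cobl were close to the threshold, at -0.87 and -0.84, before any shift of the chromosome is taken off. On chromosome 6 so were Grm7 at D0 (-0.96), the tile inside Magi1 at D1 (-0.97), Etv6 at D0 (-0.91) and Lag3 at D2 (-0.80). With the median of the chromosome on that day taken off, none of these differences would reach -0.8.

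**Figure D5:**
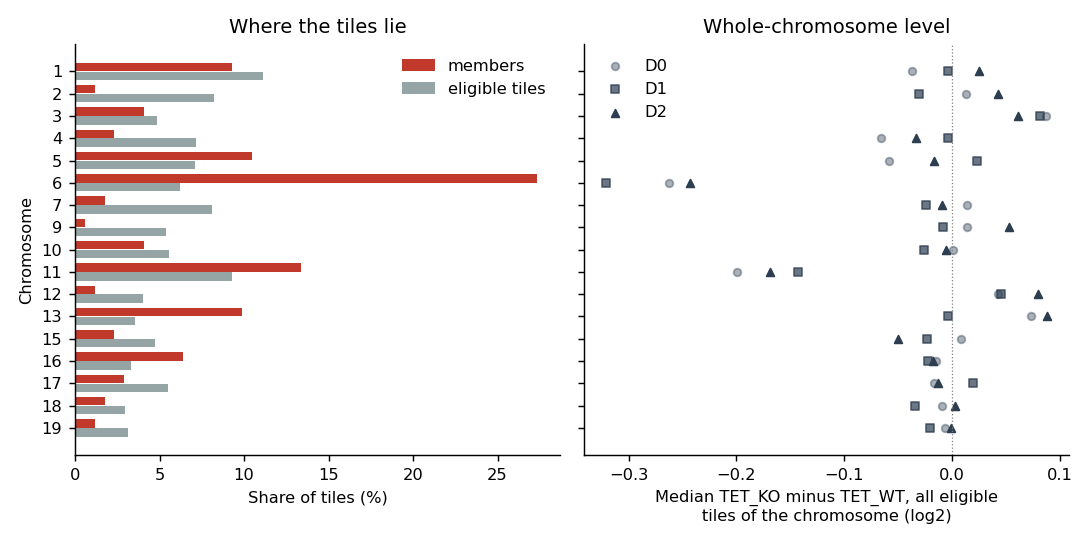
Left, the share (%) of the 172 members and of the eligible tiles on each chromosome. Right, the median TET_KO minus TET_WT over all eligible tiles of the chromosome at D0, D1 and D2 (log2). Chromosome 6 holds 27.3% of the members and its medians run from -0.32 to -0.24.

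Which tiles met the rule depended on single libraries. Without each of the 17 TET libraries in turn the rule found 142 to 244 tiles, the fewest without TET_KO D2 replicate 1 and the most without TET_KO D2 replicate 3, and 65.1 to 91.3% of the 172 were among them. Of the 172 tiles, 34 were chosen every time, 7 of them on chromosome 6, and all 34 were also chosen with each chromosome centred on its own median. They include the 12 lowest tiles except that of Grm7, the tile near Sox2 and the start of Zfp33b, while those of Rara and Etv5 are not among them. The high levels of TET_WT helped part of the tiles through the filter on the mean. Over the 26 libraries other than TET_WT, 99 of the 172 tiles had a mean of at least -0.5, and with no filter on the mean 2329 tiles met the differences.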

How the data were processed

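ATAC-seq was measured in 35 libraries of 4 lines on 3 days. The deposited values were log2 RPKM per 2-kb tile of the genome, one column per library, made by the authors. Reads were handled with Trim Galore 0.6.5, cutadapt 2.3 and Bowtie2 2.4.1 on GRCm38, per the submitters' processing notes. The treatment of duplicates, mitochondrial reads and reads with several matches is not stated in the labels. The deposited log2 values gave whole reads (tolerance 0.01 reads) for 99.998% or more of the values of each library, with an empty tile set at 0.9 read, and these reads are printed as depth. They cover counting error only and are not independent molecules, since libraries were amplified over 13 PCR cycles.

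From the log2 values the median of eligible tiles was subtracted in each library and the rule applied. limma 3.58.1 in R 4.3.3 fitted 12 group means with a mean-variance trend over all 35 libraries and 100311 eligible tiles (23 residual degrees of freedom), 2-sided, with Benjamini-Hochberg adjustment over all eligible tiles and calls at 0.05. Python 3.11.15, numpy 2.4.6, pandas 2.3.3 and matplotlib 3.10.9 were used for the rest. Alternatives were other thresholds, filters on the mean, scalings, limma voom on the recovered reads, a replicate block, and each library left out. Genes and promoters came from RefSeq (GRCm38.p6), and a tile is named by its nearest protein-coding gene.

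The tiles named were the 12 with the lowest mean difference among those whose TET libraries did not overlap, one per 20 kb, and up to 4 called tiles per direction between D2 and D0. They also included members within 50 kb of a listed gene, up to 10 at gene ends or starts, the 5 stretches with most members, 3 tiles on either side of the threshold and the 5 members with the highest mean. One tile at a gene end is not reported here. The tiles, the gene lists and these rules were chosen with earlier results of these data known.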

Additional observations from a re-analysis of the deposited data

How the results depend on the processing

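The number of tiles meeting the rule was 700 at a threshold of -0.6, 51 at -1.0, 29 on log2 (RPKM + 0.5), 619 with a mean of at least -1, 58 with a mean of at least 0 and 2329 with no filter, and 142 to 244 with a library left out, against 172. Between DNMT_KO and DNMT_WT at D1, 1 tile was called among those at -0.6 and 0 to 5 with a library left out, against 0. Between D2 and D0 in DNMT_KO, 17 were called among tiles at -0.6, 0 at -1.0, 3 as deposited, 8 with quantile normalisation, 3 with the filter on DNMT libraries, 1 with no filter, 1 with limma voom and 1 to 3 with a library left out, against 5. In DNMT_WT the counts were 16 at -0.6, 1 at -1.0 and 4 to 6 with a library left out, against 6. Over all DNMT contrasts, 34 were called at -0.6, 1 at -1.0, 17 with quantile normalisation, 5 with no filter and 5 with limma voom, against 11. Other thresholds change which tiles are counted by construction, and for the other settings the cause was not tested. No called change turned its direction in the alternatives run. Off chromosome 6, an alternative chosen after seeing the data, 125 tiles were left, of which 4 were called between D2 and D0 in DNMT_KO and 5 in DNMT_WT. Counts at other thresholds and off chromosome 6 rest on the main fit. Between D2 and D0 it called 0.421% of eligible tiles higher and 1.89% lower in DNMT_KO, and 0.505% and 1.73% in DNMT_WT. For the other settings the share of eligible tiles called is not given here, so those counts cannot be read as results about the members. The labels do not say that replicate numbers pair the samples, and deviations of same-numbered libraries within a day correlated at -0.05 to 0.02 in the DNMT lines and -0.10 to 0.22 in the TET lines. DNMT libraries correlated best with their own number in 1 of 6 at D0, 0 of 6 at D1 and 1 of 6 at D2, and TET libraries in 5 of 6, 4 of 6 and 1 of 5, a hint from the data for the TET lines at D0 and D1. A fit with the replicate block called 5 tiles between D2 and D0 in DNMT_KO, 6 in DNMT_WT, 11 in all and 0 in the other contrasts. The rule on same-numbered pairs of TET libraries found 202 tiles. It differs from the main rule only by leaving out TET_WT D2 replicate 2, which has no partner, so it does not show an effect of pairing. Depth limits single tiles, with 4 to 12 reads in the median member in TET_KO libraries.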
